A study of Bubalus bubalis with 12 samples.

Results

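The coding-sequence regions of a buffalo sperm histone array were examined: 3310 of its 177440 non-control probes, chosen because the array's own probe names mark them as coding. The rule used no measured value. The other probes were annotated to CpG islands (160708) or promoters (13422). The coding probes belonged to 1583 genes, of which 819 had 1 coding probe and 764 had 2 or more, with a maximum of 25 in PEG10, an imprinted gene derived from a retrotransposon. All 3310 passed the filter on dim probes, which asked for an input signal clearly over background on 6 or more of the 12 arrays.

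The study profiled sperm of 6 bulls of the water buffalo, Bubalus bubalis, taken from frozen semen: 3 called high-fertile (HF2, HF3 and HF5) and 3 called subfertile (SF1, SF4 and SF5). Chromatin was digested with micrococcal nuclease and precipitated with antibodies to histone H3 dimethylated at lysine 4 (H3K4me2) or trimethylated at lysine 27 (H3K27me3), so that each bull gave 1 array per mark and 12 arrays were made in all. Age, breed and how fertility was scored are not given in the sources used here. Immunoprecipitated DNA was always labelled with Cy5 and the bull's own input with Cy3, dyes were never swapped, and both DNA pools had been amplified by linker-mediated PCR.

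Most histones of the sperm nucleus are replaced by protamines, and a minority of nucleosomes remains, largely at GC-rich sequence. H3K4me2 is known from promoters and CpG islands of genes that are active or were active during spermatogenesis. H3K27me3 is placed by Polycomb repressive complexes and covers promoters and gene bodies of silenced developmental regulators such as the HOX genes.

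Values are log2 ratios, ChIP over input, from which the median of the array was subtracted, so a value of 1 means a ratio of ChIP to input that is 1 log2 unit above the median probe of that array; no absolute amount of a mark can be read from it. On the coding probes the median processed signal per array lay between 693 and 895 in the input colour and between 677.5 and 837 in the ChIP colour. Input was well above background at 98.1% to 100% of coding probes and ChIP at 96.0% to 100%. Of markers for germ cells and sperm, 1 of 10 had a coding probe (ODF1, an outer dense fibre protein of the flagellum), and 1 of 6 leukocyte markers did (CSF1R, a receptor of macrophages). None of the 5 epithelial and 7 somatic testis markers had one, so the cell type could not be checked on these regions.

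The probes stood within the cattle genome build HGSC Btau_3.1 named in the file headers, and each was 60 bases long. The array's annotation gives the class, gene and position, but neither the strand nor the exon. Where a gene had several coding probes they often started 20 bases apart, and most lay inside sequence that other classes also covered. Of the 3310, 747 had the same 60 bases printed a further time under another class, 744 as CpG island and 3 as promoter. Counted by position instead, 3039 coding probes started within 59 bases of a probe of another class. Of these, 2005 started 1 or 2 bases from the nearest one, and 291 started 3 to 59 bases from it. The remaining 271 coding probes had no other class starting within 59 bases. The coding class is therefore for 91.8% of its members a label on sequence that the array also measured as an island or promoter. Their composition was close to that of the islands: coding probes held 30.3 G or C bases of 60 and 2.91 CpG dinucleotides on average, island probes 30.0 and 2.80, and promoter probes 28.8 and 1.66.

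HHATL, a hedgehog acyltransferase-like gene, shows this layout, and for H3K27me3 it led the genes with at least 2 coding probes that were higher in high-fertile bulls without overlap, ranked by p. The sequences are shown with the 40 bases common to both coding probes in capitals; the island probe starts 1 base after the second coding probe and holds 39 of them.
HHATL coding 1 (chr22:15242671-15242730): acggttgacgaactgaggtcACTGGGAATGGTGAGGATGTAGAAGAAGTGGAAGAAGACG
HHATL coding 2 (chr22:15242691-15242750): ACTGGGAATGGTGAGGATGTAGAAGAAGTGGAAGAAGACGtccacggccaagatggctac
HHATL island (chr22:15242692-15242751): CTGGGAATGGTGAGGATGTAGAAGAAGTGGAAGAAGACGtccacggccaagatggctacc

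KCTD1, which encodes a BTB-domain repressor of transcription, was lower in high-fertile bulls for both marks. Its 3 coding probes are shown with CpG dinucleotides in capitals; the second starts 20 and the third 100 bases after the first.
KCTD1 coding 1 (chr24:31526553-31526612): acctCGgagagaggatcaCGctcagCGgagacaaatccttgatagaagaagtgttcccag
KCTD1 coding 2 (chr24:31526573-31526632): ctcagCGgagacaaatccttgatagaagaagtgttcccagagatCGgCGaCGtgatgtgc
KCTD1 coding 3 (chr24:31526653-31526712): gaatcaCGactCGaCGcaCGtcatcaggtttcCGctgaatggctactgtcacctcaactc

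C1QTNF1, a secreted protein related to complement component C1q, had 5 coding probes within 180 bases and is shown because the groups did not overlap for H3K27me3 but did for H3K4me2. Capitals again mark CpG dinucleotides.
C1QTNF1 coding 1 (chr19:54910944-54911003): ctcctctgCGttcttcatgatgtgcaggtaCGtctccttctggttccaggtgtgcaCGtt
C1QTNF1 coding 2 (chr19:54911004-54911063): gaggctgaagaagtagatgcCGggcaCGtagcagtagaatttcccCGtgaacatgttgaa
C1QTNF1 coding 3 (chr19:54911024-54911083): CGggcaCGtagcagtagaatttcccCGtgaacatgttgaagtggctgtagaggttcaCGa
C1QTNF1 coding 4 (chr19:54911044-54911103): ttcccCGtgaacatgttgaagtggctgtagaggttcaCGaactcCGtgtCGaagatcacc
C1QTNF1 coding 5 (chr19:54911064-54911123): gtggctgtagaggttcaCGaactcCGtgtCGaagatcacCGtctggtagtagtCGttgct

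PRMT8, an arginine methyltransferase best known from brain, held the coding probe with the lowest p for H3K4me2 among those lower in high-fertile bulls. The first of its 4 coding probes holds no CpG, the next 2 start 40 and 60 bases after it, and the fourth starts 400 bases after it.
PRMT8 coding 1 (chr5:113196679-113196738): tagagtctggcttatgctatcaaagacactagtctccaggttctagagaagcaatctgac
PRMT8 coding 2 (chr5:113196719-113196778): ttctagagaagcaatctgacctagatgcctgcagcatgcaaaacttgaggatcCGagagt
PRMT8 coding 3 (chr5:113196739-113196798): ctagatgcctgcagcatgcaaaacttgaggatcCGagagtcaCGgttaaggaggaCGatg
PRMT8 coding 4 (chr5:113197079-113197138): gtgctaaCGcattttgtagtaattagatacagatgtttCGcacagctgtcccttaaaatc

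Probes from MYOD1, the master regulator of skeletal muscle, and TEX2, first described in testis, are shown as single probes whose bulls did not overlap between the groups, the former for H3K27me3 and the latter for both marks. Capitals mark CpG dinucleotides.
MYOD1 coding (chr15:33494501-33494560): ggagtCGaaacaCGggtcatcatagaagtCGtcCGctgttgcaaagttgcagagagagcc
TEX2 coding (chr19:49966342-49966401): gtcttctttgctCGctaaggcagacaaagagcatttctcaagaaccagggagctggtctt

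The 747 repeated sequences gave the error of a single spot. Within each array the log2 ratios of the repeated spots correlated at r from 0.982 to 0.991, and the SD of a spot was 0.085 to 0.207 log2 units. The SD over all coding probes of an array was 0.66 to 1.59, so spot error made up 0.92% to 2.00% of the variance on an array.

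Neighbouring coding probes of an array carried similar values over a short distance only. Probes that started 20 bases apart, sharing 40 bases, correlated at r from 0.51 to 0.85 over 1069 pairs. At 60 bases, where probes share no sequence, r was 0.24 to 0.72 over 214 pairs, and at 61 to 120 bases it was 0.17 to 0.51 over 410 pairs. At 301 to 1000 bases r was -0.11 to 0.08 over 845 pairs, and at over 1000 and up to 10000 bases it was -0.17 to 0.15 over 584 pairs. HF5 had the weakest correlation of neighbours for H3K4me2 (0.51 at 20 bases), and HF2 the strongest for both marks (0.85 and 0.84). These correlations describe pairs within an array, which share the array and overlap in the genes they come from.

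**Figure D1:**
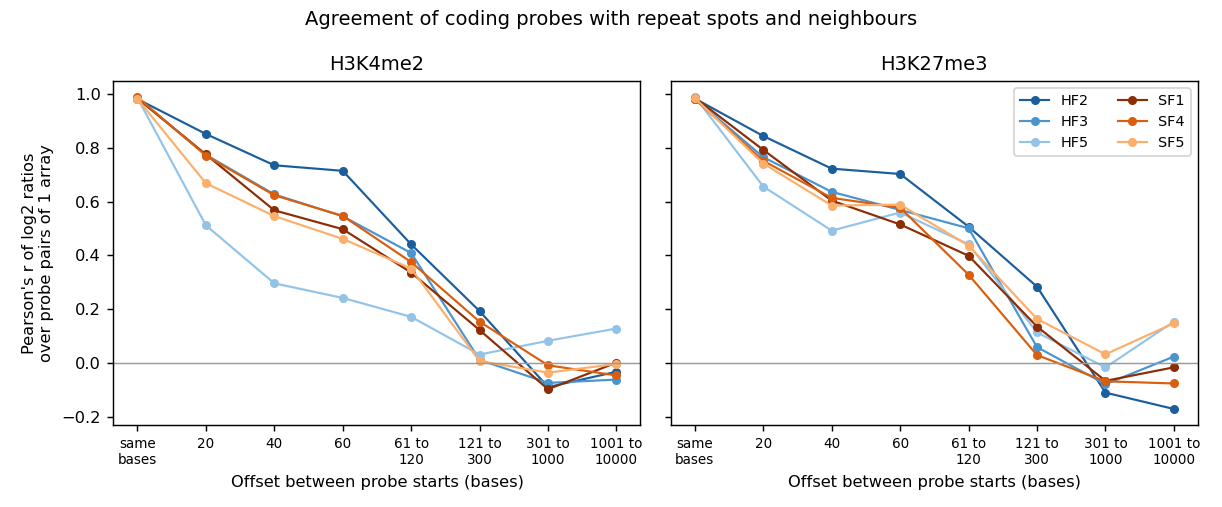
Pearson's r between coding log2 ratios of 1 array (vertical axis) for repeat spots of the same bases and for coding probes whose starts lie 20 to 10000 bases apart (horizontal axis), 1 line per bull. Every array starts at 0.982 or above for the same bases and lies between -0.11 and 0.08 at 301 to 1000 bases.

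Different bulls shared little of the pattern. Over the coding probes, arrays of the same mark in different bulls correlated at r from -0.10 to 0.24, with a median of -0.01 over 30 pairs. Within a fertility group the highest r between bulls was 0.05 for H3K4me2 and 0.09 for H3K27me3. Between the groups it was 0.24 and 0.13, both from HF5 with SF5. The 2 marks of 1 bull correlated more: r was 0.66, 0.80 and 0.39 in HF2, HF3 and HF5, and 0.86, 0.41 and 0.26 in SF1, SF4 and SF5. Both arrays of a bull share that bull's input DNA and slide, and how much of this correlation comes from them was not tested. CpG island probes gave nearly the same figures (median 0.00 between bulls with the same mark, 0.28 to 0.86 between the marks of a bull). On them HF5 with SF5 for H3K4me2 (0.29) lay slightly above the 2 marks of SF5 (0.28).

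**Figure D2:**
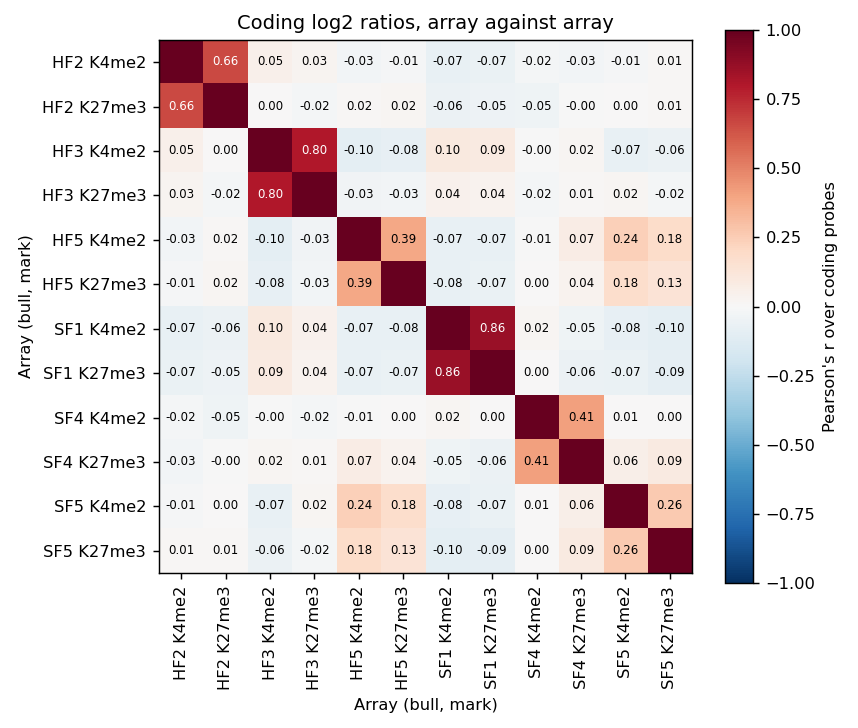
Pearson's r of coding log2 ratios between all pairs of the 12 arrays, with the marks of a bull beside each other. The 6 pairs from 1 bull lie between 0.26 and 0.86, and all other pairs between -0.10 and 0.24. The highest of the others, HF5 with SF5 for H3K4me2 (0.24), is close to the 2 marks of SF5 (0.26).

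The spread between bulls was therefore large at a given probe. The SD over the 6 bulls was 0.97 for H3K4me2 and 0.88 for H3K27me3 in the median coding probe, against 0.94 and 0.84 over all kept probes. It was present in both colours: the median SD of the log2 input signal was 0.64 for the arrays of either mark, and that of the ChIP signal 0.73 and 0.67. Within the groups the median SD of the ratio was 0.98 and 0.87. A gene's own coding probes also disagreed, with an SD within genes of 0.47 to 1.31 per array against 0.67 to 1.60 over the same probes of all genes.

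The number of CpG dinucleotides had little linear relation to the values. The correlation with the CpG count over coding probes was -0.06 to 0.05 per array, and with the number of G and C bases -0.07 to 0.17. The 501 coding probes with at most 1 CpG had array medians from -0.10 to 0.11, the 1769 with 2 or 3 from -0.06 to 0.08 and the 1040 with 4 or more from -0.26 to 0.07. In this order the H3K4me2 medians rose in HF2, HF3 and HF5 (-0.03, -0.01 and 0.07 in HF5). They fell in SF5 (0.11, -0.06 and -0.26) and did neither in SF1 and SF4. For H3K27me3 they rose in HF2 and SF1 and fell most in SF5 (0.01, -0.01 and -0.10). These trends were not tested.

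As a class, coding sequence lay close to the array median for both marks. The median of the coding probes for H3K4me2 was -0.01, -0.03 and -0.0044 in HF2, HF3 and HF5, and -0.03, -0.03 and -0.10 in SF1, SF4 and SF5. It was below the median of the CpG islands in 6 of 6 bulls, by 0.017 to 0.027 in 5 of them and by 0.118 in SF5. The mean difference was -0.039 ± 0.039 (SD, n = 6; exact two-sided sign-flip test, p = 0.031, the smallest p that 6 bulls allow; 0.19 after Benjamini-Hochberg adjustment over the 6 class comparisons), which misses the threshold of 0.05 after adjustment. Without SF5 the mean was -0.023.

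For H3K27me3 the coding median was -0.01, 0.01 and 0.05 in HF2, HF3 and HF5, and -0.0053, -0.02 and -0.03 in SF1, SF4 and SF5. It was above the island median in 2 bulls (HF3 and HF5) and below it in 4, with a mean difference of 0.0013 ± 0.029 (SD, n = 6; exact sign-flip test, p = 0.88). The sign of this mean turned without HF3 (-0.0038) or HF5 (-0.0082). Against promoters the coding median differed by 0.025 ± 0.139 for H3K4me2 (exact p = 0.63) and by -0.022 ± 0.137 for H3K27me3 (SD, n = 6; exact p = 0.81), with the sign mixed among the bulls for both marks. The sign of the H3K4me2 value turned without HF5 (-0.014), and that of the H3K27me3 value without HF3 (0.0025) or SF5 (0.014).

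**Figure D3:**
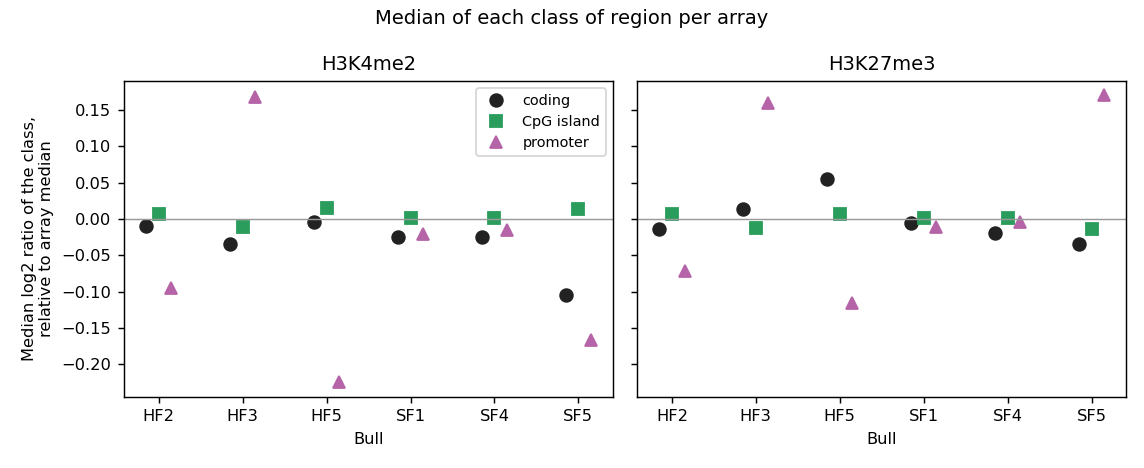
Median log2 ratio of coding (circles), CpG island (squares) and promoter (triangles) probes on each of the 12 arrays, relative to the median of the array. Coding medians for H3K4me2 lie just under the island medians in every bull, by 0.118 in SF5; promoter medians lie above coding in some bulls and below in others.

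For H3K4me2 the 271 coding probes apart from other classes averaged -0.044 ± 0.045 against the islands (SD, n = 6; below them in 5 bulls) and the 3039 that overlapped other classes -0.037 ± 0.041. For H3K27me3 the separate probes averaged 0.046 ± 0.082 above the islands (below in 2 of 6 bulls) and the overlapping ones -0.0040 ± 0.035. These subsets were formed after the values were seen and were not tested.

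Fertility was the comparison that the series was designed for, and no coding gene or coding probe passed it. The limma test of high-fertile against subfertile bulls, with Benjamini-Hochberg adjustment over all 14429 gene and class combinations, called 0 of 1574 coding genes for either mark (0% of all combinations, too), and the lowest adjusted p was 0.999 for H3K4me2 and 1.00 for H3K27me3. At an unadjusted p under 0.05 there were 76 coding genes for H3K4me2, 38 higher and 38 lower in high-fertile bulls (4.83%, beside 3.04% of all combinations; 1.75% higher and 1.29% lower). This count was 50 without HF3, 49 without SF5 and 33 when the averaged input of all 6 bulls was used for every array. For H3K27me3 there were 84, 53 higher and 31 lower (5.34%, beside 4.32%; 2.21% higher and 2.11% lower). The 3 high-fertile and 3 subfertile bulls did not overlap in 125 coding genes for H3K4me2 (7.94%, beside 6.78%) and in 150 for H3K27me3 (9.53%, beside 8.23%). Per probe, limma called 0 of 3276 coding probes (0% of 175796), with 125 at an unadjusted p under 0.05 for H3K4me2 (3.82%, beside 3.01%) and 167 for H3K27me3 (5.10%, beside 4.31%). The groups did not overlap at 253 coding probes for H3K4me2 (7.72%, beside 7.17%) and at 279 for H3K27me3 (8.52%, beside 8.03%).

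The differences of most genes were small beside the precision that 3 bulls a group allow. The 95% confidence interval of a coding gene had a median half-width of 1.54 log2 units for H3K4me2 and 1.38 for H3K27me3, while the median absolute difference was 0.43 and 0.41. The coding median of the arrays also did not separate the groups. High-fertile minus subfertile, it was 0.035 for H3K4me2 (exact permutation test, p = 0.30) and 0.038 for H3K27me3 (p = 0.20, exact permutation test), where 3 against 3 bulls cannot go below 0.1. The difference was 0.0089 for H3K4me2 without SF5 and 0.020 for H3K27me3 without HF5.

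The genes named next were those with at least 2 coding probes, no overlap of the groups and the smallest unadjusted p; they describe the largest separations and carry no adjusted support. HHATL was higher in high-fertile bulls for both marks. Its H3K27me3 value was 0.40 in HF2, 1.16 in HF3 and 2.13 in HF5, against -1.50 in SF1, -1.74 in SF4 and -0.85 in SF5. High-fertile minus subfertile, this was 2.59 ± 0.55 (SE; limma adjusted p = 1.00). For H3K4me2 the values were -0.23, 1.16 and 1.44 against -0.84, -1.36 and -0.30, a difference of 1.63 ± 0.61 with HF2 and SF5 close to each other. On the H3K4me2 arrays the input signal of HHATL differed by -1.90 log2 units, high-fertile minus subfertile, and its ChIP signal by -0.27. On the H3K27me3 arrays the input differed by -1.91 and the ChIP signal by 0.71. When the input of all 6 bulls was averaged and used for every array, the H3K4me2 difference turned to -0.229 and the H3K27me3 difference fell to 0.74. Its 11 island probes, which include the island probe shown above, gave differences of 1.74 and 2.60.

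KCTD1 was the counterpart on the lower side. Its H3K27me3 value was -0.67 in HF2, -0.63 in HF3 and -1.62 in HF5, against 0.92, 0.93 and 0.77 in SF1, SF4 and SF5, a difference of -1.85 ± 0.44 (SE; limma adjusted p = 1.00). Its H3K4me2 values were 0.06, -1.10 and -1.39 against 1.11, 0.35 and 1.19, a difference of -1.69 ± 0.57 (-1.12 for KCTD1 with the averaged input). All 3 subfertile bulls lay above the array median and 5 of the 6 high-fertile values below it. Here the ChIP signals differed more than the input: by -1.16 and -1.32 for ChIP and by 0.52 and 0.51 for input. The 39 island probes of KCTD1 reach further along the gene and differed by -0.43 and -0.58, and its 3 promoter probes by 0.38 and 0.02.

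Among the 16 genes named for H3K4me2, those higher in high-fertile bulls were FTSJ3, which works in ribosomal RNA processing, SLC38A9, an amino acid transporter of the lysosome, C22H3orf62, C16H1orf70, SLC25A25, a mitochondrial carrier of ATP and magnesium, FANCG of the Fanconi anaemia repair pathway, HHATL and SRSF1, a splicing factor. FTSJ3 had the largest difference. It measured 2.12, 1.92 and 3.39 in HF2, HF3 and HF5, and 1.23, -1.40 and -1.31 in SF1, SF4 and SF5. The difference was 2.97 ± 0.82 (SE; limma adjusted p = 0.999), and SF1 lay nearer to the high-fertile bulls than to SF4 and SF5. Its H3K27me3 values were 2.20, 1.26 and 1.97 against 1.40, 0.54 and -1.93, where the groups overlapped. With the averaged input the H3K4me2 difference of FTSJ3 was 1.73. Its 27 island and 3 promoter probes differed by 1.60 and 1.49 for H3K4me2, with overlap.

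Those lower in high-fertile bulls for H3K4me2 were PRMT8, GNA12, the alpha subunit of a G protein, NTF3, the growth factor neurotrophin-3, CNPY4, KCTD1, P2RY2, a receptor of extracellular nucleotides, SLC22A23 and ATP6V0A2, a subunit of the vacuolar proton pump. PRMT8 averaged -0.50, -0.71 and -2.95 in HF2, HF3 and HF5 and 0.71, 1.03 and 1.71 in SF1, SF4 and SF5, a difference of -2.54 ± 0.74 (SE; limma adjusted p = 0.999). Without HF5 and SF5, PRMT8 gave -1.48. The 3 overlapping probes and the distant one did not behave alike. The first measured 1.51, 1.10 and 1.79 in SF1, SF4 and SF5, and the fourth -0.42, -0.03 and -1.63. In high-fertile bulls the first measured -0.92, -1.53 and -3.73 and the fourth 0.21, 0.16 and -2.67. The separation of the groups at PRMT8 therefore lay within the first 120 bases of sequence. For H3K27me3 PRMT8 did not separate the groups (-0.43, -1.16 and -2.95 against 0.72, -1.61 and -2.40).

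GNA12 measured -0.29, 0.45 and -0.06 in HF2, HF3 and HF5 and 1.25, 1.80 and 2.96 in SF1, SF4 and SF5, so the subfertile bulls stood above the array median and the high-fertile ones near it. The difference was -1.97 ± 0.59 (SE; limma adjusted p = 0.999) (-2.66 with the averaged input of all 6 bulls). The ChIP signal differed by -2.70 and the input by -0.74. The groups met in the ChIP colour, with HF2 at -1.46 and SF1 at -1.45, where the input of SF1 was -2.80 and that of HF2 -1.19. NTF3 differed by -1.58 ± 0.52 and CNPY4 by -1.56 ± 0.51, or -0.92 with the averaged input. In P2RY2 the groups nearly met, with HF2 at -0.90 and SF5 at -0.85, and the averaged input took the difference from -1.99 to -0.42.

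For H3K27me3 the genes higher in high-fertile bulls were HHATL, C1QTNF1, ST6GALNAC5, a sialyltransferase, EVPL, envoplakin of the epidermal envelope, SALL1, a zinc finger factor of kidney development, CA10, a carbonic anhydrase-related protein, ANTXR1, the anthrax toxin receptor, and HPCAL1, a neuronal calcium sensor. C1QTNF1 measured 1.06, 0.69 and 1.96 in HF2, HF3 and HF5 and -1.51, -1.19 and -0.41 in SF1, SF4 and SF5, a difference of 2.27 ± 0.52 (SE; limma adjusted p = 1.00). ST6GALNAC5 measured 0.23, 0.93 and 0.75 against -1.52, -1.39 and -0.77, a difference of 1.86 ± 0.43. This was 0.99 with the averaged input and 0.51 for ST6GALNAC5 without the probes printed a further time. Of its 3 probes the middle one differed most: 0.45, 2.05 and 0.82 against -2.27, -2.31 and -1.48, the lowest unadjusted p of the 3276 coding probes for this mark. The probe 20 bases before it measured 0.12, 0.37 and 0.03 against -0.67, -0.30 and -0.04. The probe 20 bases after the middle one measured 0.14, 0.37 and 1.40 against -1.63, -1.55 and -0.79.

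Those lower in high-fertile bulls for H3K27me3 were KCTD1, PCED1B, ZDHHC23, a palmitoyltransferase, AFAP1, an actin filament-associated protein, LNX1, a ubiquitin ligase, SLC20A2, a phosphate transporter, ESPL1, the separase that cleaves cohesin in cell division, and NR3C2, the mineralocorticoid receptor. Their differences ranged from -2.62 ± 0.73 in PCED1B to -1.06 ± 0.43 in NR3C2. ESPL1 measured -0.66, -2.04 and -0.56 against 1.08, 0.29 and -0.25, and its H3K4me2 values of -0.05, -1.57 and -0.61 against 0.76, 0.34 and 0.66 did not overlap either. Its ChIP signal differed by -0.26 on the arrays of either mark and its input by 1.18 on the H3K27me3 and 1.06 on the H3K4me2 arrays, and with the averaged input the H3K27me3 difference was -0.23. With the averaged input PCED1B gave -1.47 and NR3C2 -0.55. NR3C2 had 7 coding probes, between positions 10410855 and 10745587 of chromosome 17.

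**Figure D4:**
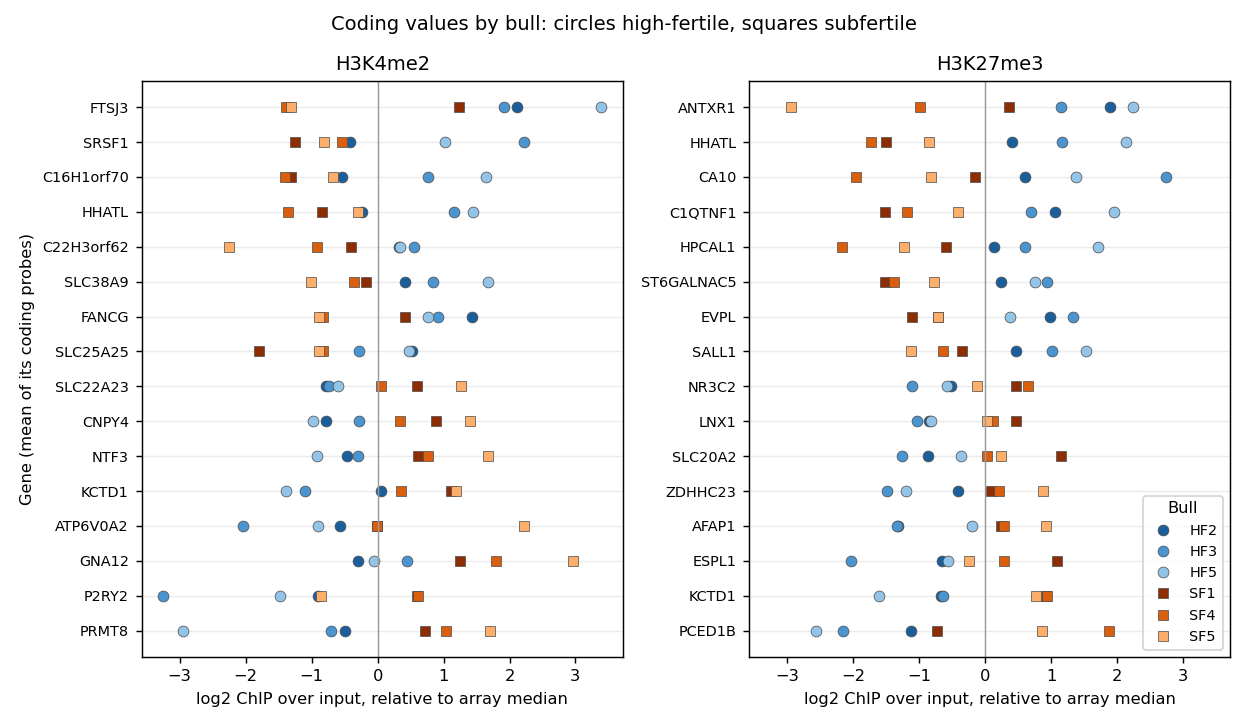
Coding log2 ratio (horizontal axis, mean of the gene's coding probes relative to the array median) of the 16 genes named per mark, with circles for the 3 high-fertile and squares for the 3 subfertile bulls. The groups are apart in every gene because that was the condition for naming; HF2 and SF5 nearly meet in HHATL and P2RY2 for H3K4me2.

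The same genes were read in their island probes. Over the array most coding probes share bases with probes of another class, while island probes can reach further along a gene, as in KCTD1. All 16 named for H3K4me2 and all 16 named for H3K27me3 had island differences in the same direction. The bulls did not overlap in 8 and 13 of them, beside 6.78% and 8.23% of all combinations. The genes were chosen for coding values without overlap, which favours this agreement. Over the 748 genes with at least 2 coding and 2 island probes, the direction was the same in 600 for H3K4me2 and 587 for H3K27me3. The fertility differences of the classes correlated over these genes at r = 0.77 and 0.79. Against promoter probes of the same genes, 246 genes, r was 0.09 and 0.17. These are descriptions across genes, which are not independent replicates. The other mark had the same direction in 12 of the 16 genes named for H3K4me2 and in 14 of the 16 named for H3K27me3; the arrays of both marks use the same bulls' input. The input signal differed more between the groups than the ChIP signal in 4 and 6 of the 16. With the averaged input of all 6 bulls the difference was smaller by over 1.5 times in 11 of the 16 named for H3K4me2 and in 12 of the 16 named for H3K27me3, and larger by as much in 0 of either. The genes were chosen on ratios to each bull's own input, which favours smaller differences with another input. These counts on input were made for the named genes only, and what the input adds to the differences was not tested.

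Slide 4 carried the arrays of HF5 and SF1, and every other slide those of 1 bull, where slide and animal cannot be told apart. On slide 4, HF5 minus SF1 was 2.28 for HHATL and -2.50 for KCTD1 for H3K4me2, and 3.63 and -2.54 for H3K27me3. The choice of genes without overlap fixes these directions.

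Single coding probes were picked by the same rule of no overlap and smallest p, and several of them are parts of the gene means above. For H3K4me2 the probes with the smallest unadjusted p were in LMAN2L, VPS37B, C22H3orf62 and FTSJ3 on the higher side and in PRMT8 (2 probes), TEX2 and ZNF238 on the lower side. For H3K27me3 they were in ST6GALNAC5, HHATL, C1QTNF1 and MAST1, and in CHST3, MYOD1, NLRP12 and FAT1. The MYOD1 probe measured -0.59, -1.95 and -2.42 for H3K27me3 in HF2, HF3 and HF5 and 1.14, 1.68 and 0.61 in SF1, SF4 and SF5, a difference of -2.80 ± 0.63 (SE; limma adjusted p = 1.00). The TEX2 probe measured -0.88, -1.99 and -1.55 for H3K4me2 against 1.24, 0.27 and 2.02. For H3K27me3 the same TEX2 probe measured -0.26, -1.22 and -1.77 against 0.72, 2.74 and 1.06, again without overlap.

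The gene groups showed no shift that limma called in any member. Solute carriers, which move metabolites and ions across membranes, were among the largest groups with 35 coding genes. For H3K4me2, 23 had positive and 12 negative differences, high-fertile minus subfertile, with a median difference of 0.29 beside -0.0033 over all coding genes. At an unadjusted p under 0.05 there were 6 of the 35 (17.1%, beside 4.83% of coding genes and 3.04% of all combinations). The bulls did not overlap in 9 (25.7%, beside 7.94% and 6.78%). Both shares were the highest among the groups of 20 or more genes that were looked at, and only 13 of the 35 genes had 2 or more coding probes. For H3K27me3 the median was 0.14, with 22 higher and 13 lower. Here 4 had an unadjusted p under 0.05 (11.4%, beside 5.34% of coding genes and 4.32% of all combinations). SLC38A9 had the smallest p for H3K4me2: 0.41, 0.84 and 1.68 in HF2, HF3 and HF5 against -0.18, -0.36 and -1.01 in SF1, SF4 and SF5, a difference of 1.49 ± 0.54. SLC20A2 had it for H3K27me3, at -1.31 ± 0.48, in the direction opposite to the group's median. With the averaged input SLC38A9 gave 0.93 and SLC20A2 -0.54.

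The 36 ion channel genes had medians of -0.17 and 0.10, with 16 and 21 higher in high-fertile bulls. The 31 zinc finger genes had -0.01 and 0.20, with 15 and 22 higher. The 28 genes of the proteasome and ubiquitin system had -0.23 and -0.13, with 9 and 12 higher. The 21 translation, splicing and RNA helicase genes had 0.20 and -0.31. The 20 genes of microtubules, motors and cilia, which include the machinery of the flagellum, had 0.13 and 0.07, and the 20 G protein-coupled receptors -0.35 and 0.00. Over all coding genes the medians were -0.0033 and 0.03. At an unadjusted p under 0.05, each of these groups held between 0 and 2 genes per mark. These were 0% to 5.56% of a group for H3K4me2 and 2.78% to 10% for H3K27me3, beside 3.04% and 4.32% of all combinations. The bulls did not overlap in 0% to 14.3% and in 2.78% to 14.3% of a group, beside 6.78% and 8.23%.

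The homeobox genes are the textbook targets of Polycomb, and 32 of them had coding values. Their H3K27me3 level over the 6 bulls had a median of 0.02, with 18 above the array median, beside 0.00 over all coding genes. For H3K4me2 the median level was -0.01 with 15 above, beside 0.06 over all coding genes. The 15 HOX genes, with 30 coding probes, had median levels of 0.15 for H3K27me3, 10 of them above the array median, and -0.02 for H3K4me2, 6 above. None of the 15 had one sign in all 6 bulls for H3K27me3. HOXB7 did for H3K4me2, at -0.87, -1.68 and -0.71 in HF2, HF3 and HF5 and -0.77, -0.73 and -1.84 in SF1, SF4 and SF5. HOXB9 separated the groups for both marks: 0.27, 1.85 and 0.10 against -0.16, -1.46 and -1.11 for H3K4me2 (difference 1.65 ± 0.65), and 0.16, 1.26 and 0.78 against -0.05, -1.73 and -0.33 for H3K27me3 (1.43 ± 0.58), neither passing adjustment. The HOXB9 input differed by -1.30 and -1.01 and its ChIP signal by 0.36 and 0.45. With the averaged input of all 6 bulls the differences of HOXB9 were 0.39 and 0.49. They were 0.60 and 0.77 with normexp background correction, 1.10 for H3K4me2 without HF3 and 0.92 for H3K27me3 without SF4.

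The markers showed no common pattern. ODF1 measured 0.44, -0.16 and -0.15 for H3K4me2 in HF2, HF3 and HF5, -0.25 and -0.16 in SF1 and SF4, and 2.79 in SF5. Its H3K27me3 values lay between -0.47 and 0.34, and both marks were read from 1 probe. CSF1R measured 0.75, -2.33 and -0.70 for H3K4me2 in the high-fertile bulls and 1.12, 1.26 and 2.12 in the subfertile ones, from 1 probe. Its H3K27me3 values were 0.27, -1.66 and 0.02 against 0.17, 0.63 and -2.05. Whether other cells contributed to these values was not tested.

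A level of a coding gene that all bulls shared was not called either. Against the array median, limma called 0 of 1574 coding genes for each mark (0% of all combinations), with lowest adjusted p of 0.93 for H3K4me2 and 0.90 for H3K27me3. At an unadjusted p under 0.05, 36 coding genes lay above and 51 below the array median for H3K4me2 (2.29% and 3.24%, beside 1.49% and 3.04% of all combinations), and 35 above and 55 below for H3K27me3 (2.22% and 3.49%, beside 2.22% and 3.24%). When the averaged input of all 6 bulls was used for every array, the counts in both directions together were 170 and 193. Without HF2 the H3K27me3 count was 149. All 6 bulls had one sign in 69 coding genes for H3K4me2 (4.38%, beside 3.72%) and in 59 for H3K27me3 (3.75%, beside 3.52%).

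Among these, BAD, which promotes cell death, was below the array median for both marks. It measured -0.57, -0.63 and -0.64 for H3K4me2 in HF2, HF3 and HF5 and -0.81, -1.36 and -0.36 in SF1, SF4 and SF5. For H3K27me3 it measured -0.68, -0.77 and -1.45 against -1.06, -0.52 and -0.08. WDR77, a partner of the arginine methyltransferase PRMT5, was above it for both, with means of 0.61 ± 0.49 and 0.81 ± 0.60 (SD, n = 6). The other genes named on the high side for H3K4me2 were MID1IP1, VPS18, DDX10, ENPP4, PRCC, SLX1A and PAX6, and on the low side PLXNA4, HOXB7, FAM78A, NFIB, STX6, TRAPPC10 and ZDHHC23. Their means ran from 0.53 in SLX1A to 1.12 in DDX10 and from -1.23 in FAM78A to -0.75 in TRAPPC10. For H3K27me3 the high side held AP1G1, ANAPC5, ABRA, CYP1B1, C29H11orf83, ACTL7B and RBM14, led by AP1G1, an adaptor of vesicle coats, at 1.05 ± 0.60. The low side held CHST14, OXSM, CMKLR1, RDH13, TAPBPL, CEBPZ and C1H3orf58. OXSM, an enzyme of mitochondrial fatty acid synthesis with 13 coding probes, was at -0.57 ± 0.23.

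The marks themselves were not told apart in any coding gene. The main fit had no bull block, so it left out that the marks of a bull are paired. For H3K4me2 minus H3K27me3, it called 0 of 1574 coding genes (limma, 0% of all combinations). At an unadjusted p under 0.05 there were 13 (0.826%, beside 0.548%). Leaving out 1 bull gave 6 without SF4, 7 without HF5, 8 without SF5 and 29 without SF1, and the averaged input gave 45. The difference had one sign in all 6 bulls in 52 coding genes (3.30%, beside 3.19%). The genes named on the H3K4me2 side were AAR2, ENPP4, DPH3, LETM1 and ST6GAL2, and on the H3K27me3 side GALNTL4, PLXNA4, FILIP1, ACVR2A and CYP1B1. AAR2, a splicing factor, measured -0.22, 0.42 and 0.53 for H3K4me2 in HF2, HF3 and HF5 and 0.27, 1.22 and -0.41 in SF1, SF4 and SF5, against -0.99, -0.95, -0.65, 0.05, -0.29 and -0.75 for H3K27me3. The mean difference was 0.90 ± 0.33 (SE; limma adjusted p = 1.00). With bulls as replicate blocks, 78 coding genes rather than 13 had an unadjusted p under 0.05 and 0 were called. The share over all combinations was not counted for the fits with blocks, so these counts cannot be set against it. The fertility difference of this difference was called in 0 coding genes (0%), and 8 had an unadjusted p under 0.05 (0.508%, beside 0.506%), or 46 with bulls as blocks. This count was 16 without HF2, 25 without SF1, 5 without SF4 and 4 without SF5, and 35 with the averaged input.

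Within a gene, most coding probes share bases with island probes. Over 748 genes the median of coding minus island was -0.0018 for H3K4me2, with 370 above and 378 below 0, and -0.0065 for H3K27me3, with 358 above and 390 below. One sign in all 6 bulls was seen in 27 genes (3.61%) and 28 genes (3.74%). OTUD7A, a deubiquitinase, was higher in coding sequence for both marks, by 0.61 ± 0.39 and 0.47 ± 0.38 (SD, n = 6). CACNA1D, a calcium channel, was lower for both, by -0.85 ± 0.69 and -0.65 ± 0.46. The other genes on the coding side were MAF, PAX6 and OXTR for H3K4me2 and LRCH4, CYP1B1 and LZTR1 for H3K27me3. Those on the island side were HOXB7, UST and FAM78A, and SIX6, LETM1 and FAM154A.

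PEG10 shows how the values ran along a coding region. Its 25 coding probes span 1520 bases of chromosome 4 (chr4:12313019-12314538). Their mean for H3K4me2 was 0.07, -0.03 and -0.02 in HF2, HF3 and HF5, and -0.26, -0.29 and -0.51 in SF1, SF4 and SF5. For H3K27me3 it was -0.18, -0.02 and 0.65 against -0.45, -0.37 and -0.83. The groups did not overlap for either mark, as in 7.94% and 9.53% of coding genes (beside 6.78% and 8.23% of all combinations). Inside the region the probes ranged from -2.15 to 2.67 in HF3 and from -3.98 to 1.89 in SF5, but only from -0.83 to 0.81 in HF2. At 1060 bases from the first probe, HF5 measured 2.33 and SF5 -3.98, and the probes 20 and 40 bases further, which share sequence, followed them (2.44 and 2.22, -2.68 and -2.30). For H3K27me3 the HF5 value there was -0.62 and that of SF5 -1.98. At 1360 bases, HF3 measured 3.43 for H3K27me3 and 1.67 for H3K4me2, while HF2 measured -0.96 and 0.12. Some stretches were shared. At 1060 bases for H3K4me2, SF1 (-1.86) and HF3 (-1.31) were low as SF5 was, while HF2 (0.56) and SF4 (0.97) were not. At 1400 bases HF3 (2.19), SF1 (2.67) and SF5 (1.22) were high, and HF2 (-0.30), HF5 (-2.44) and SF4 (-0.53) were not. High and low stretches thus spanned several probes in a bull, and their places differed between some bulls and coincided in others. The means over the region lay nearer to 0 than the highest and lowest probes.

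**Figure D5:**
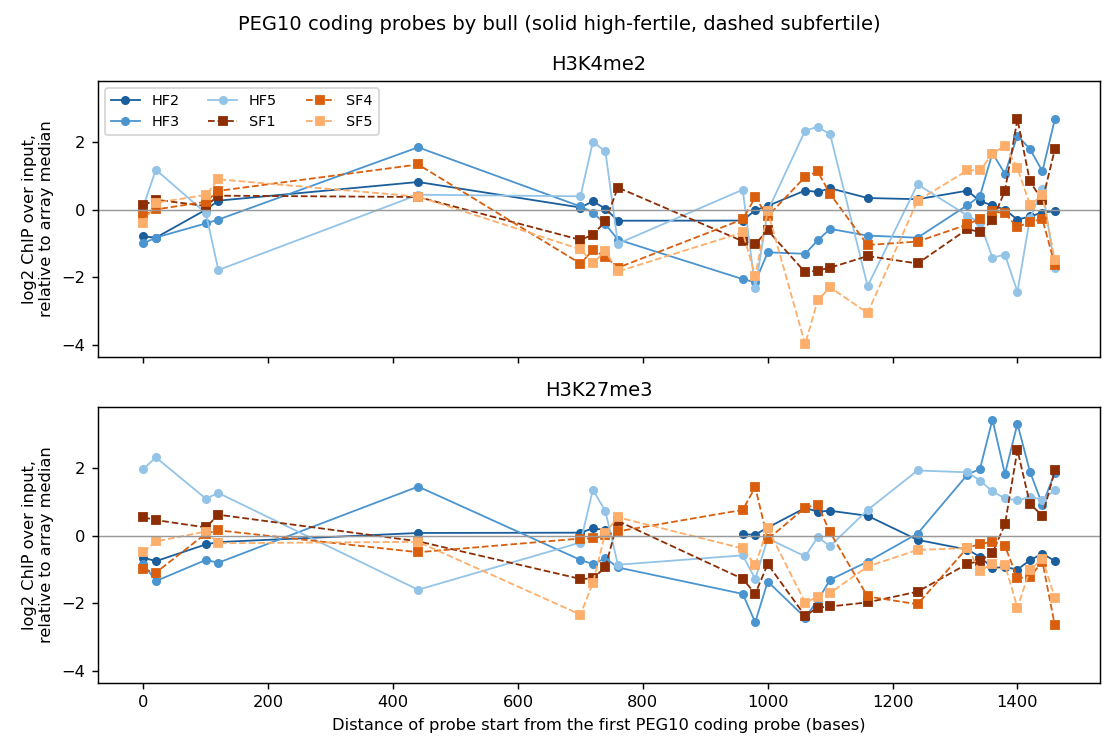
Log2 ratio of the 25 PEG10 coding probes (vertical axis, relative to the array median) by the distance of the probe's start from the first one in bases, 1 line per bull (solid high-fertile, dashed subfertile). Stretches of neighbouring probes are high or low together in a bull, such as 2.33 in HF5 and -3.98 in SF5 at 1060 bases for H3K4me2. Some bulls differ in where they do, and others share a stretch. For H3K27me3, 1 spot of HF2 was missing.

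The other genes with most coding probes were NRN1 (17 probes), OSBP (16), FAT1 (15), DGCR8 and DYNC1H1 (14 each), FEZF2 and OXSM (13 each). Their means over all probes stayed between -1.39 and 0.61 for H3K4me2 and between -0.98 and 1.05 for H3K27me3 in every bull, and in NRN1, a neuritin that acts in neurite outgrowth, the mean ranged from -0.44 to 0.04 and from -0.65 to 0.31.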

How the data were processed

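Each of the 12 arrays was a two-colour Agilent tiling array hybridised with ChIP DNA (Cy5) and input DNA (Cy3) of 1 bull. The authors deposited scanner output with processed intensities per spot, already background-subtracted and dye-normalized by Agilent Feature Extraction 10.7 per the submitters' processing notes (10.7.3.1 per the file headers), and a table of log2 values whose exact scaling is not stated, used here as an alternative. Probe positions refer to HGSC Btau_3.1, per the file headers.

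The log2 ratio of the processed intensities was taken for each non-control spot, outlier spots flagged by the scanner were set missing, and each array was centred on its median, with no loess or quantile step. By the deposited flags, the input intensity of a kept probe exceeded background clearly on 6 or more of the 12 arrays. Up to 11 coding probes per array were missing. The value of a gene is the mean of its coding probes. All 14429 gene and class combinations were fitted together with limma 3.58.1 in R 4.3.3, 2-sided, with Benjamini-Hochberg adjustment and a threshold of 0.05. The fits were tested on simulated data. Class medians were compared by exact permutation in R 4.3.3. Correlations, profiles and figures were made in Python 3.11.15. The number of arrays limits the precision. Each replicate is 1 bull.

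Named genes had at least 2 coding probes. Per mark they were the 8 of smallest unadjusted p in each direction whose groups did not overlap, and the 8 in each direction against the array median with one sign in 6 bulls. Further ones were 5 in each direction between the marks, the 4 largest coding minus island differences in each direction with one sign, the 8 with most probes, the genes of smallest p in the gene lists, of which only some are printed, the HOX genes and the markers. Single probes were the 4 of smallest p in each direction and mark. Members, lists and rules were chosen with earlier results of these data known, and several name patterns of the lists were narrowed after the files were read.

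The marks of a bull are paired, since the labels give both the same animal. The main fits between the marks had no bull block, and the fits with it are an alternative. On the coding probes, the input deviations of the marks correlated at 0.929 to 0.980 within bulls and at -0.474 to 0.243 between bulls. Fertility groups share no animals, and a number shared between them pairs nothing. All arrays were used. Alternatives were another normalization, background correction, input, base composition, probe filter, probe minimum, bull block and set of bulls.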

Additional observations from a re-analysis of the deposited data

Results flagged for a closer look

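In 4 of 89 named genes, H3K4me2 minus H3K27me3 had one sign in all 3 high-fertile bulls and the opposite in all 3 subfertile ones. The same held in 44 of the 1574 coding genes. The share over all combinations was not counted, so no excess can be read from these counts. C1QTNF1, HHATL and FANCG were named for groups that did not overlap in a mark used here, which can favour this pattern. The limma tests given here had no bull block. In C1QTNF1 the difference was -0.24, -1.90 and -2.38 in HF2, HF3 and HF5 and 0.30, 1.54 and 1.67 in SF1, SF4 and SF5, which gives -2.67 between the groups (limma interaction, adjusted p = 1.00). In FANCG it was 0.02, 1.38 and 0.76 against -0.15, -1.38 and -2.04, or 1.91 between the groups (limma adjusted p = 1.00). HHATL gave -0.97 (limma adjusted p = 1.00) and C29H11orf83 gave -0.56 (limma adjusted p = 1.00). None of the 4 passed the adjusted test of the difference, and HF3 in HHATL and HF2 in FANCG lay close to 0, as did HF5 (-0.02) and SF1 (0.07) in C29H11orf83.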

How the results depend on the processing

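No alternative gave a called coding gene or coding probe in the fertility, array median or mark comparisons. With bull as the replicate block, 0 coding genes were called for the marks or for their fertility difference. The counts at an unadjusted p under 0.05 moved to 78 and 46, for which no share over all combinations was counted. Slide as a random block could not be fitted, since 6 arrays per mark lay on 5 slides.

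Coding minus island for H3K4me2 stayed below 0 under all 15 alternatives. It missed the unadjusted threshold with the mean input of the 6 bulls (-0.035), without HF5 and SF5 (-0.024) and without the probes printed a further time (-0.031, an alternative chosen after seeing the data). Leaving out each bull gave -0.043 to -0.023, where the exact test over 5 bulls cannot go below p = 0.0625. For H3K27me3 it turned with loess (-0.0079), the deposited table (-0.0083), G and C bins (-0.00025), the mean input (-0.0077), both colours above background on all arrays (-0.0058), without HF5 and SF5 (-0.0051) and without the probes printed a further time (-0.0058). Leaving out each bull gave -0.0082 to 0.0057.

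Coding minus promoter for H3K4me2 turned with G and C bins (-0.050), both colours above background (-0.032) and without HF5 and SF5 (-0.033), and leaving out each bull gave -0.014 to 0.071. For H3K27me3 it turned with normexp (0.013), and leaving out each bull gave -0.061 to 0.014. With the mean input, HHATL for H3K4me2 turned to -0.23, and TTC30A turned from -1.32 to 0.018 for H3K4me2 and from -1.16 to 0.15 for H3K27me3. The cause was not tested.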
